A study of Mus musculus with 4 samples.

Results

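Of 34547 mouse genes measured here, 8 that make, move or break down phosphate and pyrophosphate around cartilage cells were compared between hypertrophic and proliferating chondrocytes: Alpl, Phospho1, Enpp1, Ank, Slc20a1, Slc20a2, Smpd3 and Xpr1. They were chosen by function and matched by gene symbol, and all 8 were found and passed the filter on low counts that left 16607 genes to test. Hypertrophic chondrocytes (HC) came from forelimb cartilage of C57BL/6 mouse embryos at day E15.5 (replicates 3 and 4), and proliferating chondrocytes (PC) from that of the same strain at E14.5 (replicates 1 and 2). The cells were laser-microdissected from frozen sections and their RNA was sequenced in 4 libraries. Each state was sampled at 1 age, so the state of the cells and the age of the embryo cannot be told apart. No genetic change or treatment is given for either group, nor whether the 2 libraries of a group came from different embryos, and p-values then measure only the spread between these libraries. The title of the series names epigenetic mechanisms of the change between these states.

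In a growth plate, chondrocytes stop dividing, enlarge and finally calcify the matrix around them. Mineral forms when phosphate joins calcium, and pyrophosphate outside the cell blocks that step. Enpp1 makes pyrophosphate from nucleotides outside the cell and Ank passes it, or the nucleotide it is made from, out of the cell, while the alkaline phosphatase Alpl splits it into phosphate. Smpd3 cuts sphingomyelin and so yields phosphocholine, from which Phospho1 frees phosphate inside matrix vesicles. Slc20a1 and Slc20a2 carry phosphate into the cell with sodium, and Xpr1 lets it out.

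The libraries held 15246529 and 21866266 estimated counts in HC and 30373440 and 36644496 in PC, so both HC libraries were shallower. Mitochondrial transcripts took 20.16% and 14.11% of counts in HC and 8.81% and 13.15% in PC, and HC replicate 3 stood apart in the gene model Gm10800, at 8.75% against 1.75% to 2.67% in the others. TPM, which divides counts by transcript length and scales each library to the same total, was used to check the labelled cells against their markers. All 7 chondrocyte markers, Col2a1 and Acan among them, were above 0 in every library, and summed to 5035 and 9340 TPM in HC and to 17523 and 11335 TPM in PC. The 7 markers of hypertrophy, Col10a1, Ihh and Spp1 among them, summed to 13924 and 23726 TPM in HC and to 396 and 1287 TPM in PC. PC replicate 2 thus held more of these markers than PC replicate 1, and its Col10a1 CPM was 8.03 times as high. The HC libraries differed too: HC replicates 3 and 4 had 3501 and 583 CPM of Ihh, but 3331 and 6293 CPM of Spp1. Of the 7 markers, 2 passed with edgeR, Ihh and Mef2c, while Col10a1 (edgeR adjusted p = 0.0538) and Spp1 (0.0822) did not. Markers of other cell types also had higher sums in both HC libraries, except those of muscle, whose ranges overlapped. Osteoblast markers summed to 1992 and 1101 TPM in HC and to 215 and 304 TPM in PC, and osteoclast markers to 349 and 320 TPM in HC and to 12.2 and 40.4 TPM in PC. Red blood cell markers summed to 458 and 684 TPM in HC and 68.3 and 101 TPM in PC, and endothelial markers to 94.7 and 73.8 TPM in HC and 24.9 and 18.5 TPM in PC. Perichondrium markers summed to 126 and 120 TPM in HC and 114 and 105 TPM in PC. They were above the endothelial sums in every library, and above the osteoclast and red blood cell sums in PC. Muscle markers summed to 117 and 49.2 TPM in HC and 32.0 and 52.2 TPM in PC, and macrophage markers to 92.0 and 56.3 TPM in HC and 8.04 and 13.6 TPM in PC. The neutrophil sums were the lowest, at 9.04 and 16.1 TPM in HC and 4.79 and 2.90 TPM in PC. Bglap2, Myod1, C1qa and Elane were at 0 in both HC libraries, Dpt and Cldn5 in HC replicate 3, and Myog and Dcstamp in HC replicate 4. In PC, Cldn5 was at 0 in both libraries, Bglap and Sost in PC replicate 1, and Bglap2 in PC replicate 2. In bulk samples such as these, fewer cells of a type and less RNA per cell cannot be told apart.

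Both phosphatases that release phosphate for mineral, Alpl and Phospho1, and the membrane transport gene Ank rose in HC. Their levels were 23.6, 3.93 and 7.94 times those in PC. Enpp1 and Xpr1 were above PC in both HC libraries without passing the test, Slc20a1 and Slc20a2 were below PC in both without passing, and Smpd3 overlapped between the groups. With edgeR's quasi-likelihood test, adjusted over all genes tested, 3 of the 8 genes were higher in HC against a background of 2.75% (457 of 16607), and 0 were lower against a background of 1.96% (325 of 16607). At an unadjusted p under 0.05, 4 were higher against a background of 12.7% and 1 lower against 14.4%, and DESeq2 called 4 higher against a background of 9.81% and 1 lower against 8.7%. Both HC libraries lay above both PC libraries in CPM (counts over library size, scaled with edgeR's TMM factors) for 5 of the 8, against 27.7% of all genes tested, and below them for 2, against 33.3%. The median log2 fold change was 1.05 over the 8 genes and -0.04 over all genes tested.

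**Figure D1:**
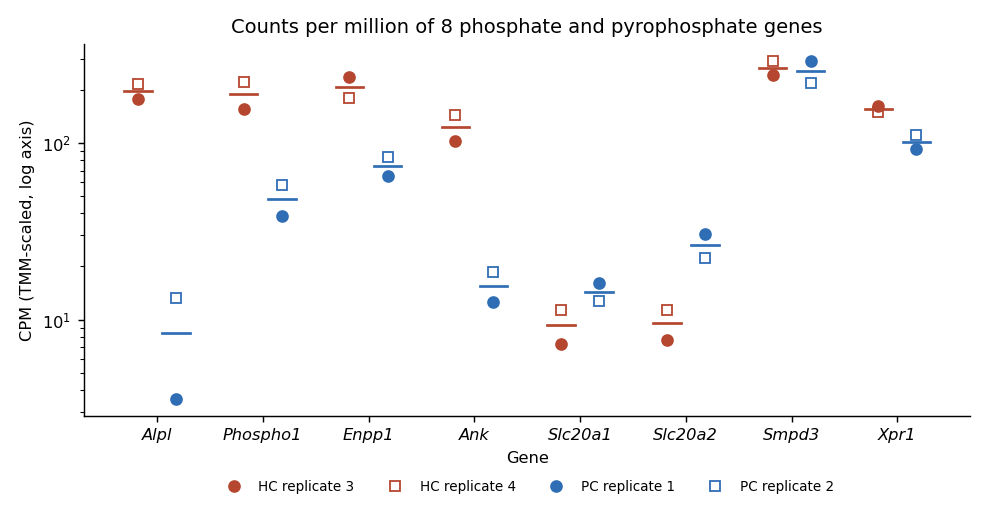
CPM of each gene on a log axis, HC libraries in red left of PC libraries in blue, circles for the lower and squares for the higher replicate number, and bars for the mean of the 2 libraries. The groups stand farthest apart for Alpl (179 and 216 CPM in HC, 3.55 and 13.2 CPM in PC), and they overlap only for Smpd3.

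Alpl (ENSMUSG00000028766, chromosome 4, 137741733 to 137796384, minus strand, GRCm38), the tissue-nonspecific alkaline phosphatase of calcifying cartilage and bone, had 2204 and 4804 estimated counts in HC replicates 3 and 4, against 122 and 507 in PC replicates 1 and 2. Scaled, that was 179 and 216 CPM in HC and 3.55 and 13.2 CPM in PC. The 2 HC libraries were close to each other and far above PC, while PC replicate 2 was 3.71 times PC replicate 1. HC exceeded PC by 4.56 ± 0.69 on the log2 scale (SE, n = 2 in each group, edgeR adjusted p = 0.037). When PC replicate 1 was left out the difference was 3.87, and when PC replicate 2 was left out 5.77. Osteoblasts also express Alpl. Their 7 markers tested all had log2 values above 0, with 5.38 for Bglap, 5.23 for Sost, 5.08 for Dmp1, 3.48 for Col1a1, 2.78 for Col1a2, 2.56 for Ifitm5 and 0.58 for Sp7, and 0 passed with edgeR (adjusted p of 0.0529 for Col1a1 at the lowest). Bglap, the osteocalcin of mature osteoblasts, had 15.6 and 12.6 TPM in HC and 0 and 0.948 TPM in PC, and Bglap2 was at 0 in all libraries but PC replicate 1, where it had 0.728 TPM. The part of osteoblast RNA in the Alpl result was not tested.

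Alpl has 2 start sites in RefSeq on GRCm38, and counts were assigned to the transcript of the upstream start and none to that of the downstream one. The upstream window is chr4:137796335-137796634 and the downstream one chr4:137766426-137766725, each read on the minus strand from before the start to just after it. They are shown with the windows of Phospho1 (chr11:95824250-95824549, plus strand) and Ank (chr15:27466427-27466726, plus strand), the other genes that rose. Capitals mark matches on either strand to any of 4 motifs. The letters GGGCGG stand for a GC box, bound by Sp factors, and neighbouring GC boxes overlap where a run of capitals is longer. A Runx core, the site of the cartilage and bone factors Runx2 and Runx3, was searched as TGTGGT alone. Other forms of that site, such as TGCGGT, were not searched, so a window without the searched letters may still hold one. For the TATA box the search took TATAAA, which marks the start of many regulated genes. An AP-1 site, bound by Fos and Jun, was searched as TGANTCA.
Alpl upstream: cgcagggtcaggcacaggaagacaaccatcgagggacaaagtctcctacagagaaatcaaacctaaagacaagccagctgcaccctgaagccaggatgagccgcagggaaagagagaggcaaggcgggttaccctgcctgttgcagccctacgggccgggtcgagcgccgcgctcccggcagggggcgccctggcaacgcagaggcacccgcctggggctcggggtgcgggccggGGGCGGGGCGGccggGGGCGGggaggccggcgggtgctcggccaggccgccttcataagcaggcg
Alpl downstream: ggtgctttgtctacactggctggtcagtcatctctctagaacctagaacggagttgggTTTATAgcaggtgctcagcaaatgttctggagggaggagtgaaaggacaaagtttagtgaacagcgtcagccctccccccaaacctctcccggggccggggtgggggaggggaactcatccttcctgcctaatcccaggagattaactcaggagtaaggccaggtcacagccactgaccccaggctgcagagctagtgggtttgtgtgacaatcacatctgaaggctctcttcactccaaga
Phospho1: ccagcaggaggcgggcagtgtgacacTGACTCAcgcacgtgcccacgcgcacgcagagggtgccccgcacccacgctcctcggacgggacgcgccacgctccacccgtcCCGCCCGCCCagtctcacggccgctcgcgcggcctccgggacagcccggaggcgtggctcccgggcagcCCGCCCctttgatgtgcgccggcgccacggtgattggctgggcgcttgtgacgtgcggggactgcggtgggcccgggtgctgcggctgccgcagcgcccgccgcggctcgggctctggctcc
Ank: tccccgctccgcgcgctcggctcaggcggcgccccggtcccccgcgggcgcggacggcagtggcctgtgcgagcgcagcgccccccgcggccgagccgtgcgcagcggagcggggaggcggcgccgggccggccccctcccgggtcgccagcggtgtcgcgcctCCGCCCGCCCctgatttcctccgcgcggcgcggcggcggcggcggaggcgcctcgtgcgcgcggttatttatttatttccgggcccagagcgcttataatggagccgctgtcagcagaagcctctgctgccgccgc
The upstream Alpl window was 70.0% G or C with 26 CpG pairs and 3 GC boxes, and the downstream one 54.3% with 4 CpG pairs and no GC box. The downstream window held 1 match to the TATA letters, read on the opposite strand. That match lies far from the start, at position -192 from the first base, and whether it acts as a TATA box was not tested. The windows of Phospho1 and Ank were richer still, at 77.0% and 78.0%, with 3 and 2 GC boxes and, in Phospho1, 1 AP-1 site. The median of all 32851 windows was 52.7%. GC boxes occur in 35.7% of those windows, the TATA letters in 13.6%, the AP-1 letters in 7.81% and the Runx letters in 16.8%; the Runx letters were in none of the 4 windows shown.

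The transcript that begins at the upstream start, of 2522 bases, held 65.5% and 68.6% of Alpl counts in HC and 81.3% and 66.0% in PC. The transcript of 916 bases that begins at the downstream start was listed at 0 in all 4 libraries. A count of 0 allows up to 0.136% and 0.0624% of Alpl counts in HC and 2.46% and 0.592% in PC, for counting error only. It shares 748 of its bases with the upstream transcript, so only reads over the other 168 tell them apart, which the limits do not cover. Nearly all remaining counts went to a coding model of 604 bases that begins between these starts and shares 572 of its bases with the upstream transcript. It took 34.5% and 31.4% of Alpl counts in HC and 17.0% and 34.0% in PC, but 72.5% and 70.4% of Alpl TPM in HC and 50.7% and 73.0% in PC. The TPM of Alpl therefore rests for the greater part on how shared reads were split, while its counts do not. The upstream transcript alone had 38.9 and 77.1 TPM in HC and 1.83 and 4.80 TPM in PC, and the split between it and the short model did not pass the test of transcript usage (edgeR Simes adjusted p = 1).

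**Figure D2:**
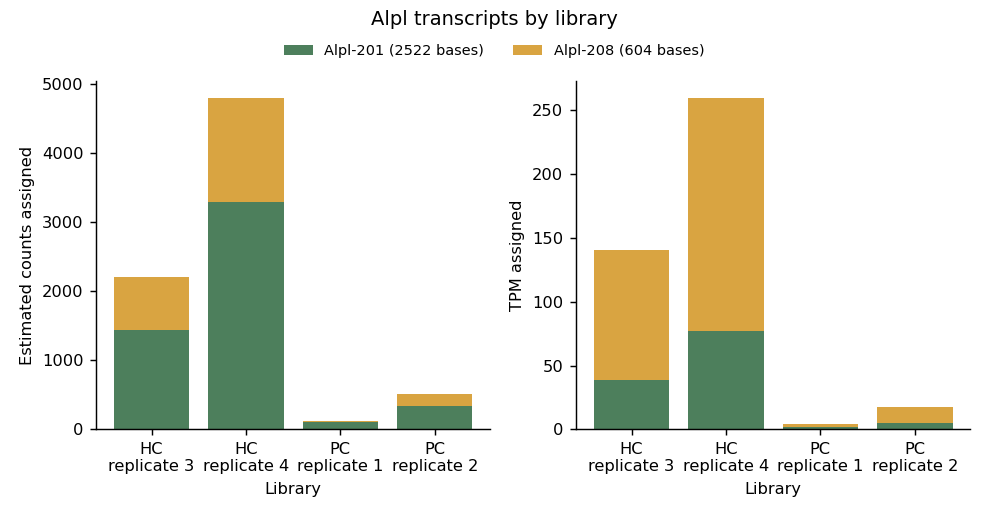
Estimated counts (left) and TPM (right) of Alpl by library, HC before PC, stacked by the transcript of 2522 bases from the upstream start and the model of 604 bases. The short model is the smaller part of the counts in every library and, at 72.5% and 70.4% in HC, the larger part of the TPM there.

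Phospho1 (ENSMUSG00000050860, chromosome 11, 95824499 to 95832140, plus strand), the phosphatase of matrix vesicles, had 156 and 223 CPM in HC against 38.6 and 58.0 CPM in PC. The groups did not overlap, and the lowest HC library was well above the highest PC library. On the log2 scale the difference was 1.97 ± 0.37 (SE, n = 2 in each group, edgeR adjusted p = 0.0472), just inside the threshold. That call was lost without PC replicate 1 (1.67, adjusted p = 0.16) and with an offset for effective transcript length (1.89, adjusted p = 0.0605). Its longest transcript, of 1910 bases, took at least 98.4% of the gene's counts in every library, so its counts do not depend on a split between transcripts.

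Smpd3 (ENSMUSG00000031906, chromosome 8, 106252548 to 106337988, minus strand), the neutral sphingomyelinase upstream of Phospho1, had 244 and 292 CPM in HC against 293 and 220 CPM in PC. The groups overlapped, and PC replicate 1 was the highest of the 4 libraries. The difference of 0.07 ± 0.32 in log2 missed the threshold (edgeR adjusted p = 0.918), and its sign depended on the scaling: it was -0.19 with scaling to library size alone, which moved the median of all genes to -0.29, and -0.49 on the log2(TPM + 1) scale, which moved it to -0.39. Smpd3 was the most abundant of the 8 genes in PC, with 100 and 59.6 TPM there, against 40.6 and 73.9 TPM in HC. A shorter transcript of 2626 bases held 4.87% and 2.37% of Smpd3 counts in HC and 13.6% and 3.57% in PC, so that 1 PC library was high. Whether Smpd3 differs from Alpl or Phospho1 in its change was not tested.

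Ank (ENSMUSG00000022265, chromosome 15, 27466677 to 27594909, plus strand), the membrane protein that passes pyrophosphate, or the nucleotide it is made from, out of the cell, had 103 and 144 CPM in HC against 12.6 and 18.6 CPM in PC. All HC values were well above PC, and the libraries of a group lay within a factor of 1.39 in HC and 1.48 in PC. The log2 difference reached 2.99 ± 0.37 (SE, n = 2 in each group, edgeR adjusted p = 0.0359), the smallest adjusted p that any gene reached, and Ank was number 78 of all genes tested when ordered by p. Every Ank count in HC came from its transcript of 3498 bases. Leaving out single libraries gave values of 2.68 to 3.27.

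Enpp1 (ENSMUSG00000037370, chromosome 10, 24637914 to 24712159, minus strand), which makes pyrophosphate outside the cell, had 238 and 181 CPM in HC against 65.4 and 83.6 CPM in PC. The groups did not overlap, and HC replicate 3 was the higher of its pair, unlike for Ank, Alpl and Phospho1. Its log2 difference of 1.49 ± 0.32 was just outside the threshold (edgeR adjusted p = 0.0585). It passed without HC replicate 3 (1.25, adjusted p = 0.0223) or HC replicate 4 (1.63, adjusted p = 0.00609), with no filter (0.0223) or a stricter filter on low counts (0.046) and with DESeq2 (0.000208), and had 1.29 and an adjusted p of 0.414 without PC replicate 1. Its coding transcript of 6777 bases held 95.9% and 92.4% of Enpp1 counts in HC and 83.2% and 91.0% in PC.

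The balance of these genes can be read as ratios of TPM within a library, which no scaling between libraries touches. Alpl stood to Enpp1 as 4.73 and 7.08 in HC and as 0.234 and 0.976 in PC. On this scale the phosphatase was above the pyrophosphate-making enzyme in both HC libraries. It was below that enzyme in both PC libraries, by a small margin in PC replicate 2. With protein-coding transcripts alone the ratio was 4.89 and 7.69 in HC and 0.304 and 1.08 in PC. Alpl was then above Enpp1 in PC replicate 2 too. Another measure, chosen after the data were seen, divides all counts of a gene by the effective length of its longest coding transcript. It keeps the counts assigned to the short Alpl model but not the length of that model. On it the ratio of Alpl to Enpp1 was 2.09 and 3.33 in HC and 0.152 and 0.440 in PC. In CPM, which does not correct for length, it was 0.752 and 1.19 in HC and 0.0542 and 0.157 in PC. Ank stood to Enpp1 as 0.815 and 1.44 in HC and 0.320 and 0.412 in PC. Alpl stood to Phospho1 as 2.03 and 1.65 in HC and 0.118 and 0.412 in PC; per effective length of the longest coding transcript it was 0.853 and 0.719 in HC and 0.0680 and 0.168 in PC, so which of the pair is higher in HC depends on the short Alpl model. With 2 libraries against 2, a two-sided exact permutation test has 6 arrangements and a smallest p of 2 in 6, so these ratios are given without a test.

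Slc20a2 (ENSMUSG00000037656, chromosome 8, 22476788 to 22569612, plus strand), one of the sodium-phosphate importers, had 7.63 and 11.4 CPM in HC against 30.5 and 22.4 CPM in PC. Both HC libraries were lower than both PC libraries. The log2 difference of -1.47 ± 0.40 missed the threshold (edgeR adjusted p = 0.0895), but it passed with DESeq2 (-1.45, adjusted p = 0.0212). Without HC replicate 3 it was -1.25, and without HC replicate 4 it was -1.84. HC counts were low here, at 94 and 253, against 1048 and 862 in PC. Its coding transcript of 3566 bases held 82.9% and 95.6% of them in HC and 87.0% and 91.5% in PC, and most of the rest went to a single-exon model that shares only 9.0% of its bases with it.

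Slc20a1 (ENSMUSG00000027397, chromosome 2, 129198764 to 129211616, plus strand), the other importer of that family, had 7.31 and 11.4 CPM in HC against 16.1 and 12.7 CPM in PC. The groups did not overlap, by a small margin. Its log2 difference of -0.62 ± 0.43 missed the threshold (edgeR adjusted p = 0.412), and was -1.03 without HC replicate 4 and -0.37 without HC replicate 3. Counts of Slc20a1 were spread over coding and non-coding models: the longest, of 3316 bases, held 54.6% and 85.2% in HC and 56.8% and 65.7% in PC, and a non-coding one of 1989 bases held 11.5% and 13.6% in HC and 28.7% and 24.5% in PC. A model with a retained intron took 31.5% in HC replicate 3 and 0 in HC replicate 4. Transcript usage did not pass (edgeR Simes adjusted p = 0.272). Of the TPM of the 2 importers together, Slc20a1 made 62.7% and 56.3% in HC and 46.0% and 41.2% in PC. With protein-coding transcripts alone, the share was 52.4% and 51.7% in HC and 31.8% and 32.9% in PC, so Slc20a1 was the greater part in HC and the smaller part in PC either way. In CPM its share was 48.9% and 50% in HC and 34.6% and 36.3% in PC, higher in HC as well but no majority.

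Xpr1 (ENSMUSG00000026469, chromosome 1, 155275701 to 155417415, minus strand), the phosphate exporter, had 162 and 151 CPM in HC against 92.2 and 112 CPM in PC. The groups did not overlap in CPM, but they did in TPM, at 23.2 and 39.4 in HC and 24.9 and 29.8 in PC. With a log2 difference of 0.61 ± 0.29 it did not pass (edgeR adjusted p = 0.239), nor under any of the 14 alternatives, where the difference lay between 0.15 and 0.73. Its coding transcripts of 7492 and 4094 bases share 98.1% of the bases of the shorter, and the larger part of the counts was the longer one in HC replicate 3 and the shorter one in HC replicate 4. The shorter held 32.1% and 57.3% of Xpr1 counts in HC and 24.4% and 44.3% in PC.

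Over all the genes followed, transcript usage could be tested in 7 of 8, since Ank had a single transcript left after the filter. With edgeR's diffSpliceDGE, 0 of the 7 passed and 0 had an unadjusted p under 0.05, against a background of 0.174% (16 of 9183 genes; 1895 had an unadjusted p under 0.05). No other tool was run for this test.

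**Figure D3:**
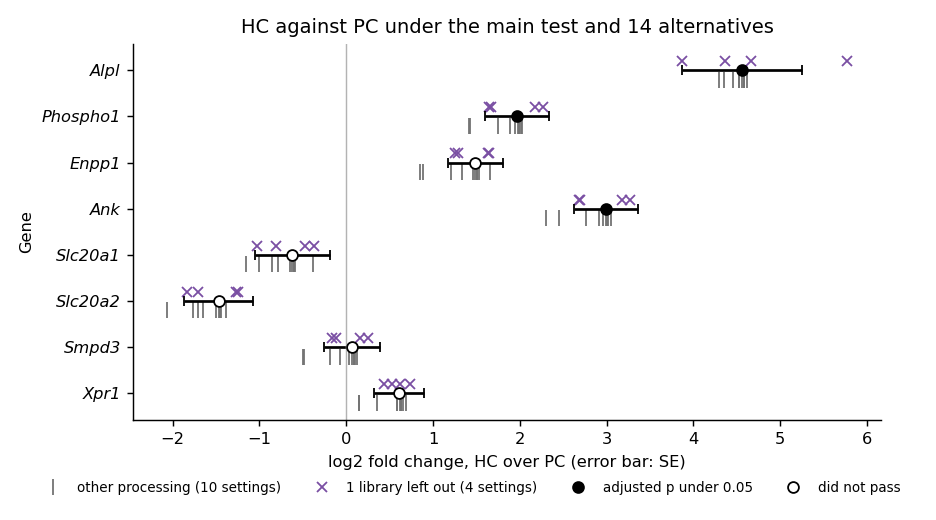
Log2 fold change of HC over PC for each gene with its SE, filled where the edgeR adjusted p was under 0.05, with 10 other ways of processing as grey ticks below and the 4 fits that leave out 1 library as crosses above. The values of Alpl, Ank, Phospho1, Enpp1 and Xpr1 lie above 0 and those of Slc20a1 and Slc20a2 below 0 under every setting drawn, while Smpd3 falls on both sides.

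The calls of Alpl, Phospho1 and Ank were lost together under 4 settings, in each of which 0 genes passed in all: library size alone (adjusted p = 0.0515, 0.08 and 0.0515), protein-coding transcripts only (0.0553, 0.0634 and 0.053), and limma-trend on log2(TPM + 1) (0.0577, 0.16 and 0.0799) or log2(TPM + 0.1) (0.0711, 0.183 and 0.0945). At an unadjusted p under 0.05, those fits had 4394, 3761, 4260 and 3993 genes, and 5, 5, 4 and 4 of the 8.

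From high to low, the levels per length in HC stood in the order Alpl, Phospho1, Smpd3, Ank, Enpp1, Xpr1, Slc20a1 and Slc20a2. Alpl had 141 and 260 TPM, Phospho1 69.6 and 158, Ank 24.4 and 53.1, Enpp1 29.9 and 36.8, Slc20a1 3.19 and 5.39 and Slc20a2 1.90 and 4.19 TPM. When values were compared across libraries, each pair of neighbours in that order overlapped except Xpr1 and Slc20a1. Within each HC library, however, Alpl stood above Phospho1, Phospho1 above Smpd3 (40.6 and 73.9 TPM), and Smpd3 above the rest. Slc20a1 stood above Slc20a2 in both, and both importers were the lowest. Only the order of Ank, Enpp1 and Xpr1 differed between the HC libraries. The place of Alpl rests on the short Alpl model: in counts per kilobase of the longest coding transcript, scaled to library size, Phospho1 led in HC with 71.0 and 129, against 60.5 and 92.8 for Alpl. In PC the order was Smpd3, Phospho1, Xpr1, Enpp1, Slc20a2, Alpl, Slc20a1 and Ank. There Phospho1 had 34.8 and 43.2 TPM, Enpp1 17.6 and 18.2, Slc20a2 15.6 and 9.31, Alpl 4.13 and 17.8, Slc20a1 13.3 and 6.53 and Ank 5.64 and 7.51 TPM. Each of the first 4 was clear of the next gene, and the last 4 overlapped with their neighbours. By the longest coding transcript, Alpl was last in PC, with 1.72 and 5.87, against 5.83 and 4.26 for Slc20a1 and 4.30 and 5.88 for Ank, still overlapping. Against all genes tested, Alpl stood above 97.6% in mean TPM in HC and above 57.1% in PC, and Ank above 86.8% in HC and 46.4% in PC. Slc20a2 stood above 38.4% of genes in HC and above 60.0% in PC, while Smpd3 stood above 90.8% in HC and 91.5% in PC.

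For the 3 genes that rose, the 3 protein-coding genes of most similar pattern were sought among 7629, by the root mean square difference of centred log2(TPM + 1) over the 4 libraries. Among those nearest to Alpl were the metalloreductase Steap4 (0.203) and the adhesion receptor Adgrf5 (0.226). Steap4 had 42.6 and 117 TPM in HC and 0.771 and 5.53 TPM in PC, and like Alpl both genes were higher in PC replicate 2 than in PC replicate 1. Nearest to Phospho1 were Arhgef2 (0.065), Hey1 (0.068) and Crip2 (0.078). Hey1 itself had a log2 change of 1.88 ± 0.67 and did not pass (edgeR adjusted p = 0.145). With protein-coding transcripts only, its change was 0.2. Nearest to Ank were the annexin Anxa8 (0.045), Fam84a (0.072) and the ephrin receptor Epha2 (0.080), and Anxa8 had 31.4 and 63.0 TPM in HC and 7.07 and 9.74 TPM in PC.

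The wider pathways were read from lists chosen by function, whose medians and values with ± are log2 fold changes of HC over PC with their SE. Of 10 genes tested that sense phosphate or act with the hormone Fgf23, 5 rose, 0 fell and 5 did not pass with edgeR. Over all genes tested, edgeR called 2.75% higher and 1.96% lower. In this list 8 genes were higher and 0 lower at an unadjusted p under 0.05, against 12.7% and 14.4% of all genes. DESeq2 called 8 higher and 0 lower, against 9.81% and 8.7% of all genes. The list's median was 2.91. The summed osteoblast markers, 1992 and 1101 TPM in HC and 215 and 304 TPM in PC, were higher in HC too, Dmp1 is in both lists, and their part in this result was not tested. Phex, a membrane peptidase whose loss wastes phosphate, had 159 and 242 CPM in HC and 3.52 and 12.4 CPM in PC, a log2 change of 4.65 ± 0.70 (edgeR adjusted p = 0.037). Without PC replicate 1 it was 3.97, and 5.80 when PC replicate 2 was dropped. Galnt3, which glycosylates Fgf23, rose by 3.53 ± 0.45 in log2, the receptor Fgfr1 by 2.79 ± 0.38, the parathyroid hormone receptor Pth1r by 2.29 ± 0.41 and the vitamin D receptor Vdr by 1.63 ± 0.29. The Vdr call was lost when PC replicate 1 (edgeR adjusted p = 0.201) or PC replicate 2 (0.18) was left out, and with the effective length offset (0.0766). Fgf23 itself was barely detected, at 0.244 and 0.315 CPM in HC and 0.610 and 0.467 CPM in PC. The secretory kinase Fam20c (3.03 ± 0.61), and the matrix proteins Mepe (6.08 ± 1.34) and Dmp1 (5.08 ± 1.19) did not pass (edgeR adjusted p = 0.0529, 0.0611 and 0.0698). All 3 passed with DESeq2. Over the fits that left out 1 library, Fam20c ranged from 1.87 (HC replicate 4 left out) to 3.62 (HC replicate 3). Mepe ranged from 5.09 (PC replicate 1) to 11.09 (PC replicate 2), the latter a fitted value that is no bound, since PC is then at 0. Dmp1 ranged from 4.17 (PC replicate 1) to 7.67 (PC replicate 2).

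Among 17 other genes of pyrophosphate and of nucleotides outside the cell, 2 rose, 2 fell and 13 did not pass with edgeR, with a median of 0.59. The edgeR shares over all genes were 2.75% higher and 1.96% lower. At an unadjusted p under 0.05, 4 of the 17 were higher and 3 lower, against 12.7% and 14.4% of all genes. DESeq2 also called 4 higher and 3 lower, against 9.81% and 8.7% of all genes. Acp5, the acid phosphatase of osteoclasts, had 42.9 and 31.2 CPM in HC and 2.03 and 4.10 CPM in PC (3.59 ± 0.50, edgeR adjusted p = 0.0359), and the osteoclast markers given above moved with it; their part was not tested. Entpd3, which degrades nucleotides at the cell surface, rose by 2.58 ± 0.48, and its relatives Entpd6 and Entpd7 had -2.45 ± 0.48 and -1.69 ± 0.33. All of these 3 lost their call without PC replicate 1 (edgeR adjusted p = 0.232, 0.395 and 0.301), Entpd3 also without PC replicate 2 (0.109), and Entpd6 and Entpd7 with DESeq2-type size factors (0.0508 and 0.0501). An effective length offset ended all 3 calls too (0.0664, 0.0606 and 0.158). Enpp2 (1.77 ± 0.37), the ATP channel Panx3 (1.40 ± 0.31) and Entpd4 (-1.18 ± 0.29) missed the threshold (edgeR adjusted p = 0.0573, 0.0597 and 0.0753), and passed with DESeq2. Alpi and Alppl2, other alkaline phosphatases, were listed at 0 in all libraries. Akp3, a further alkaline phosphatase, had 1.03 and 0.19 TPM in HC and 0.0654 and 0 TPM in PC, and was not tested. Abcc6, which releases nucleotides, was at 0 in all but PC replicate 1, where it had 0.272 TPM.

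Among 22 other genes of phosphocholine and sphingomyelin, 2 rose, 0 fell and 20 did not pass with edgeR, with a median of -0.21. The edgeR shares over all genes were 2.75% higher and 1.96% lower. At an unadjusted p under 0.05, 4 of the 22 were higher and 4 lower, against 12.7% and 14.4% of all genes. DESeq2 called 4 higher and 2 lower, against 9.81% and 8.7% of all genes. Sgms2, which makes sphingomyelin, the substrate of Smpd3, had 1220 and 908 CPM in HC and 90.8 and 162 CPM in PC (3.08 ± 0.44, edgeR adjusted p = 0.0359). Enpp6, which frees phosphocholine from breakdown products of choline lipids, had 28.8 and 16.3 CPM in HC and 0.494 and 1.90 CPM in PC (4.23 ± 0.78, edgeR adjusted p = 0.046). Its value was 3.53 when PC replicate 1 was left out and 5.47 when PC replicate 2 was, and it did not pass with an effective length offset (0.0738). Smpdl3b (-4.60 ± 0.96), Smpdl3a (1.22 ± 0.33) and Sgpp1 (-1.72 ± 0.47) did not pass (edgeR adjusted p = 0.0559, 0.0895 and 0.091), but did with DESeq2. Smpdl3b was -3.92 when HC replicate 3 was dropped and -6.82 when HC replicate 4 was, and Sgpp1 -2.52 and -1.26.

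Other phosphate transport genes gave 0 calls among 6 tested with edgeR, and a median of 0. Over all genes, edgeR called 2.75% higher and 1.96% lower. At an unadjusted p under 0.05, 2 of the 6 were higher and 1 lower, against 12.7% and 14.4% of all genes. DESeq2 called the same numbers, against 9.81% higher and 8.7% lower of all genes. The kidney and gut importers Slc34a1, Slc34a2 and Slc34a3 had at most 0.934 TPM in any library and were not tested. Kidins220, known from human cells as a partner of XPR1, had 1.69 ± 0.34, and Slc37a2 and Slc37a3, relatives of the sugar phosphate carrier, had 3.21 ± 0.66 and -1.13 ± 0.30 (edgeR adjusted p = 0.0523, 0.0546 and 0.0841). These 3 passed with DESeq2 and when either HC library was left out, with 2.29 for Slc37a2 without HC replicate 3 and 3.72 without HC replicate 4. Genes that supply zinc to alkaline phosphatase or build and cut its lipid anchor gave 0 calls among 10 tested with edgeR and with DESeq2, with 0 higher and 1 lower at an unadjusted p under 0.05, where 12.7% and 14.4% of all genes stood. Their median was -0.71, and 9 of the 10 had values below 0, as did 8513 of the 16607 genes tested. Slc30a6 (-1.26 ± 0.48), Pgap2 (-1.29 ± 0.69) and Pigo (-2.32 ± 1.49) had the smallest adjusted p in that list (edgeR, 0.163, 0.294 and 0.379). HC replicate 3 held 0 CPM of Pigo and HC replicate 4 held 4.14 CPM. These values moved with single HC libraries. Without HC replicate 3 they were -0.93, -0.71 and -1.39. Without HC replicate 4 they were -1.80, -2.47 and -11.25, the last a fitted value that is no bound, since HC is then at 0.

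The counts of these lists moved with single libraries. Leaving out a library leaves 1 in its group, so counts from those fits are not set against shares of all genes. For the genes of these lists that passed with all libraries, the log2 changes are given instead. Without HC replicate 3 these were 4.89 for Phex, 3.7 for Galnt3, 3.07 for Fgfr1, 2.63 for Pth1r and 1.49 for Vdr. They were 3.31 for Acp5, 2.36 for Entpd3, -2.55 for Entpd6, -1.76 for Entpd7, 2.81 for Sgms2 and 3.73 for Enpp6. Without HC replicate 4 the changes were 4.26 for Phex, 3.24 for Galnt3, 2.33 for Fgfr1, 1.74 for Pth1r and 1.68 for Vdr. They were 3.76 for Acp5, 2.7 for Entpd3, -2.42 for Entpd6, -1.7 for Entpd7, 3.23 for Sgms2 and 4.53 for Enpp6. In both of these HC fits many more genes were called in all than with all 4 libraries. Without PC replicate 1 the changes were 3.97 for Phex, 3.2 for Galnt3, 2.75 for Fgfr1, 2.46 for Pth1r and 1.65 for Vdr. They were 3.14 for Acp5, 2.38 for Entpd3, -1.92 for Entpd6, -1.45 for Entpd7, 2.68 for Sgms2 and 3.53 for Enpp6. Without PC replicate 2 the changes were 5.8 for Phex, 3.87 for Galnt3, 2.76 for Fgfr1, 2.08 for Pth1r and 1.54 for Vdr. They were 4.15 for Acp5, 2.74 for Entpd3, -2.88 for Entpd6, -1.96 for Entpd7, 3.52 for Sgms2 and 5.47 for Enpp6. All of the genes named here kept their sign in these 4 fits.

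**Figure D4:**
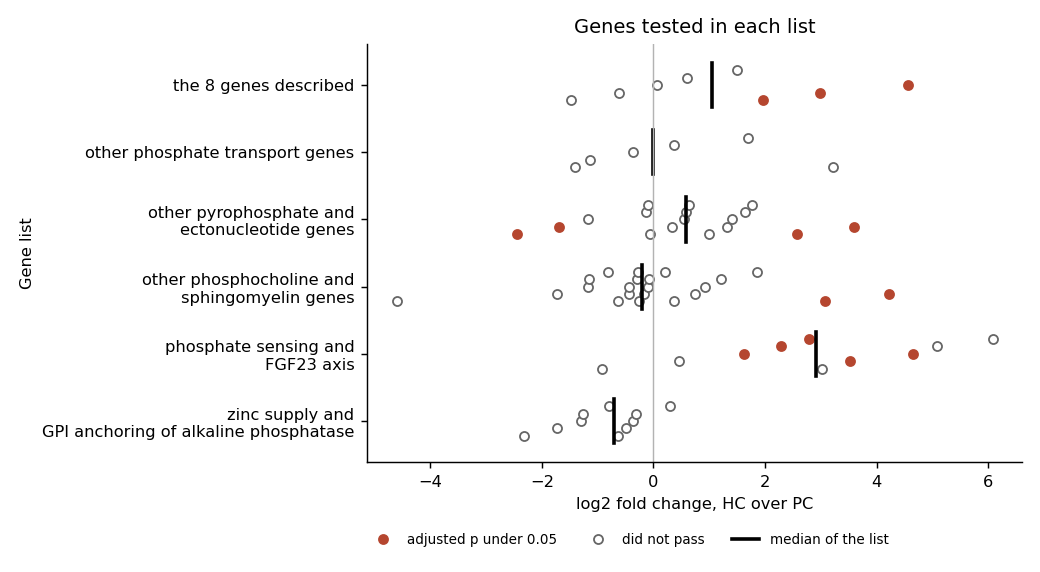
Log2 fold change of HC over PC for each tested gene of the 6 lists, red where the edgeR adjusted p was under 0.05, with the list's median as a bar. The median of the phosphate sensing list is 2.91 and that of the zinc and anchor list -0.71, against -0.04 over all genes tested.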

How the data were processed

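Trimmomatic 0.36, kallisto 0.43.1 and the build mm10 are named in the submitters' processing notes; the transcript set and the strand setting were not given in the sources used here. The labels' protocols state that 10 ng of RNA entered a library kit for degraded RNA. Per the file headers, each deposited table lists a length, an effective length, an estimated count and a TPM value per transcript. Estimated counts are reads shared among transcripts by likelihood, so overlapping or antisense genes may share reads, and TPM keeps no depth. Of 109282 transcripts, 107987 matched GENCODE M21 (GRCm38) by identifier without version, and of 40 transcripts of the 8 genes 39 had the same length there. Counts and TPM were summed per gene, and counts rounded. edgeR 4.0.16 (filterByExpr, TMM, quasi-likelihood F-test, Benjamini-Hochberg over 16607 genes, threshold 0.05) compared HC with PC; the SE came from the fitted coefficient and its F statistic. Replicate tables differed beyond sampling noise, with a chi-square per degree of freedom of 193 in HC and 102 in PC. diffSpliceDGE tested transcript usage. limma 3.58.1 and DESeq2 1.42.0 served as alternatives, in R 4.3.3, limma on log2(TPM + 1) and log2(TPM + 0.1), a scale that understates changes of low genes. Only the edgeR fits were run on simulated data, in which every gene varied alike in both groups. That run cannot show how calls hold for replicates that differ as these do, and its outcome is not given here. Promoter windows are RefSeq's on GRCm38.p6, found for 6 of the 8 genes and not for Slc20a2 and Smpd3. Named from the other lists are genes that passed and the 3 next by adjusted p. Others (Fgf23, Alpi, Alppl2, Akp3, Abcc6 and the Slc34 genes) were named after their values were seen. In these lists 1 symbol, Pigy, matched no gene. Of the genes nearest in pattern, 1 is not reported here. The genes and lists were chosen with earlier results of these data known. Limits from 0 counts use a floor of 3 counts and cover counting error only.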

Additional observations from a re-analysis of the deposited data

How the results depend on the processing

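No paired analysis was possible because HC and PC share no replicate number. Genes higher and lower numbered 457 and 325, and 1629 and 1445 with DESeq2, 268 and 165 with an effective length offset, 963 and 965 without a filter, and 0 with library size alone, protein-coding transcripts only or limma-trend on either TPM scale. Leaving out single libraries gave 379 to 3331 higher and 257 to 3775 lower genes, and 2 to 4 of the 8 genes higher and 0 to 1 lower; DESeq2 called 1 of the 8 lower, and the 4 fits with 0 genes called 0. Smpd3 turned to -0.19 with library size alone, -0.07 with the length offset, -0.49 and -0.5 on the TPM scales with a pseudocount of 1 and 0.1, and ranged from -0.16 to 0.25 without single libraries, with -0.16 without PC replicate 2 and -0.12 without HC replicate 4, and the other 7 genes kept their sign under all 14 alternatives. Transcript usage differed in 16 genes, in 8 without a filter, in 3 with protein-coding transcripts only and in 0 to 1383 without single libraries (388 without HC replicate 3, 1383 without HC replicate 4). Alpl over Enpp1, as the HC mean minus the PC mean, was 5.30 in TPM, 0.867 in CPM and 2.41 per longest coding transcript, and Alpl over Phospho1 1.57, 0.898 and 0.668. The cause of these shifts was not tested. Leaving out a library leaves 1 in its group, which is assumed to vary like the other group, and the low HC counts of Slc20a1 and Slc20a2 limit their precision.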
